A study of Mus musculus with 20 samples.

Results

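The 10 genes described here encode the surface molecules with which germinal centre B cells receive T cell help and show checkpoint ligands to T cells: Cd40, Icosl, Cd80, Cd86, Cd274, Pdcd1lg2, Cd83, Icam1, Fas and Tnfrsf14. They were chosen by name, as receptors and ligands of the contact between B cell and T cell, out of 23382 genes listed in the files. All 10 passed the filter on low values, which kept 11386 genes with at least 1 TPM (a transcript level scaled for transcript length and for the library's total) in at least 5 libraries. RNA was sequenced from sorted mouse germinal centre B cells in 20 libraries, 5 in each of 4 groups. The gate for centroblasts was B220+FAS+GL7+CXCR4+CD86-, and that for centrocytes B220+FAS+GL7+CXCR4-CD86+. Controls were Cgamma1Cre:+/- and Myd88L252P:WT, and mutants were Cgamma1Cre:+/- and Myd88L252P:+/-, so both genotypes carried 1 Cgamma1Cre allele. Myd88 L252P is a change in the adaptor that carries Toll-like receptor and interleukin-1 receptor signals to NF-kB. Cre from the Cgamma1 locus is active mainly in germinal centre B cells, so the allele is meant to act there rather than in all B cells. The labels state no strain, age, sex or immunisation. Nor do they tie the libraries of a group to different animals, and the p-values then measure only the spread between libraries, which may be technical.

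In a germinal centre, B cells divide and mutate their receptors as centroblasts in the dark zone and compete for follicular helper T cells as centrocytes in the light zone. Help is passed through CD40, which meets CD40 ligand, and through ICOS ligand, CD80 and CD86, which meet ICOS, CD28 and CTLA-4. PD-L1 (Cd274) and PD-L2 (Pdcd1lg2) bind the inhibitory receptor PD-1, HVEM (Tnfrsf14) binds BTLA, ICAM-1 holds the contact through LFA-1, CD83 keeps MHC class II and CD86 at the surface, and FAS is a death receptor. CD86 separated the 2 sorts and FAS was gated positive in both, so the zone values of Cd86 are given as a description with no test and Cd86 is left out of the zone counts.

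The start regions of 4 of these genes are shown: Pdcd1lg2, the member called by genotype below, with Cd274, the other PD-1 ligand gene, which lies near it on chromosome 19, and Icosl and Icam1, a ligand of help and an adhesion ligand that were higher in centrocytes of both genotypes. Each sequence is the 250 bases before the RefSeq transcript start (RefSeq, GRCm38.p6), written 5′ to 3′ along the gene. Capitals mark every match, on either strand, to 5 motifs: the NF-kB consensus, the interferon response motif (GAAA repeated after a gap of 2 bases), TGANTCA (AP-1), TTCNNNGAA (STAT) and CCGCCC (GC box). No matches overlapped.
Pdcd1lg2 (chr19:29410669-29410918, forward strand): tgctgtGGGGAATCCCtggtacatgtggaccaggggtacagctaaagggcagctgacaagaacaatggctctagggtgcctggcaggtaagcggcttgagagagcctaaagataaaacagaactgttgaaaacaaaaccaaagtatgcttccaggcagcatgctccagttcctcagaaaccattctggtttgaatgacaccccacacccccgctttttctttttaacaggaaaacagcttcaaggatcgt
Cd274 (chr19:29367188-29367437, forward strand): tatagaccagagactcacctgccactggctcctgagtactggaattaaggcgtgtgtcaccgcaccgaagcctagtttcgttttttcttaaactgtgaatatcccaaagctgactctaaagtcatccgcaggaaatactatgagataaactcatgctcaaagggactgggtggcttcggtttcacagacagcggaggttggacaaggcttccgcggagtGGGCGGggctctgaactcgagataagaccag
Icosl (chr10:78069118-78069367, forward strand): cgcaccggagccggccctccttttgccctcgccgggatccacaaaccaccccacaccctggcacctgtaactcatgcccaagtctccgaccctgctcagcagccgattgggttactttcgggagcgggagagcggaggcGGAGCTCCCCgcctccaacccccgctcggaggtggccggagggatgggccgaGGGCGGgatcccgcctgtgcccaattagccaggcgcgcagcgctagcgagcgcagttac
Icam1 (chr9:21015690-21015939, forward strand): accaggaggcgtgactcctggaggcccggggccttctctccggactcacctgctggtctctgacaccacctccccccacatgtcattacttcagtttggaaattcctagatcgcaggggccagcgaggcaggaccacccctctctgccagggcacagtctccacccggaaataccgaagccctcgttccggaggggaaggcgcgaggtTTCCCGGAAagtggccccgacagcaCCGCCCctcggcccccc
In GENCODE M21 annotation of GRCm38 the Cd274 gene spans chr19:29367455-29388095 and Pdcd1lg2 chr19:29410919-29471161, both on the forward strand, with Fas farther along the same chromosome at chr19:34290666-34327772. On the forward strand lie also Cd40 (chr2:165055627-165072948), Icosl (chr10:78069302-78083913), Cd80 (chr16:38455561-38496335), Cd83 (chr13:43784775-43803132) and Icam1 (chr9:21015985-21028817). Cd86 (chr16:36603869-36666081) and Tnfrsf14 (chr4:154921933-154928563) lie on the reverse strand. Windows of the RefSeq table matched 7 of the 10 genes. Pdcd1lg2 had an NF-kB consensus match 244 to 235 bases before the start and no match to the other motifs. Icosl had an NF-kB match 111 to 102 bases before the start and a GC box at 59 to 54. In Cd274 the only match was a GC box at 31 to 26. Icam1 had a STAT-type match at 42 to 34 and a GC box at 17 to 12. Of the genes not printed, Cd80 had an AP-1 match at 42 to 36 (window chr16:38458683-38458932). Tnfrsf14 had the interferon-type motif at 64 to 55 (window chr4:154928078-154928327). Both windows lie inside the GENCODE span of their gene, and the Icosl window runs into its own. All match positions count from the RefSeq transcript start. The Fas window held an AP-1 match at 211 to 205, a STAT-type match at 93 to 85 and a GC box at 47 to 42. Among all 32851 windows of this length, 7.25% held the NF-kB consensus, 2.98% the interferon-type motif, 6.75% TGANTCA, 7.02% TTCNNNGAA and 32.7% CCGCCC. A match is a description of the letters in these windows only.

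The B cell and germinal centre markers Ms4a1, Bcl6 and S1pr2 were present in every group. Of the 9 T cell markers found, Cd3e, Cd4, Cd8a, Cd28 and Bcl11b stayed at or under 1.37 TPM, whereas Cd3g reached 2.13, Cd5 5.43 and Lck 289. Libraries held 12719 to 14092 genes above 0 TPM. Centroblast mutants 4 and 5 stood apart: they had the fewest genes above 0 (12895 and 12719), the share of TPM in ribosomal protein genes was 12.49% and 17.1% in them and 7.37% to 10.01% in the other libraries, and their median-of-ratios size factors were 0.793 and 0.646 against 0.941 to 1.18. Values that turn or move widely without them are given both ways. Across all tested genes the median log2 fold change was -0.16 for the genotype in centroblasts, 0.02 for the genotype in centrocytes, 0.14 between the zones in controls and 0.34 in mutants, and scaling by median of ratios brought each to between -0.01 and 0.02. In bulk RNA, fewer cells of a type and less RNA per cell cannot be told apart. The naive B cell marker sum was 202 to 265 TPM in control centroblasts and 116 to 220 in mutant centroblasts, 538 to 807 in control centrocytes and 651 to 833 in mutant centrocytes. The summed level of 10 macrophage and monocyte markers was 42.2 to 61.4 TPM and 40.9 to 81.7 in the centroblast groups, against 104 to 202 and 82.9 to 197 in the centrocyte groups. The part of these markers in the results below was not tested.

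Levels spanned a wide range, and Cd83 was the highest of the 10 in each group while the PD-1 ligands and Cd80 were the lowest. In control centroblasts Cd83 had a mean of 269 ± 56.3 TPM (SD, n = 5), followed by Fas at 205 ± 23.9 and Cd86 at 143 ± 30.0. Icosl (81.9 ± 9.99), Cd40 (75.2 ± 3.69) and Icam1 (74.6 ± 3.85) came next and did not differ beyond their spread. Tnfrsf14 stood alone at 22.3 ± 3.62. Cd274 (6.71 ± 2.04), Cd80 (6.55 ± 3.30) and Pdcd1lg2 (5.56 ± 1.28) closed the order, again within each other's spread. In control centrocytes the order was Cd83 (886 ± 165), Cd86 (318 ± 11.7), Fas (233 ± 10.8), Cd40 (144 ± 2.81), Icosl (138 ± 21.9), Icam1 (114 ± 8.44), Tnfrsf14 (50.3 ± 11.4), Cd274 (13.3 ± 3.57), Pdcd1lg2 (8.71 ± 2.25) and Cd80 (8.34 ± 2.84). There Cd40 and Icosl, and Pdcd1lg2 and Cd80, lay within each other's spread. In mutant centrocytes Cd80 (13.1 ± 5.23) ranked above Pdcd1lg2 (6.09 ± 1.39), whereas Cd274 (16.5 ± 4.83) and Cd80 were within their spread.

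**Figure D1:**
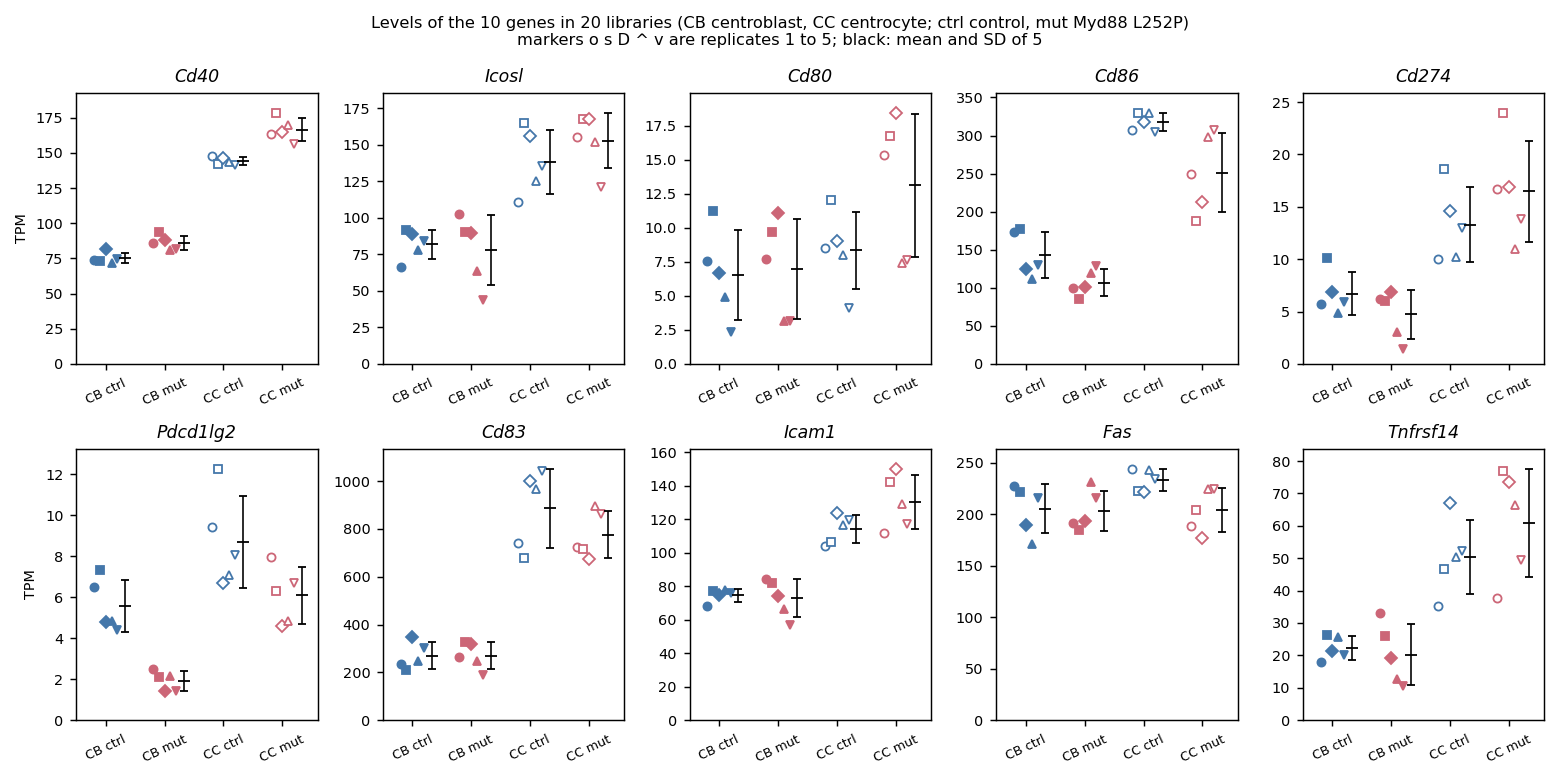
TPM of the 10 genes in each of the 20 libraries, 1 panel per gene with its own axis from 0; filled symbols are centroblasts, open symbols centrocytes, blue controls and red Myd88 L252P, the symbol shape is the replicate number, and the black bar is the mean and SD of 5. Pdcd1lg2 in the mutant centroblasts lies at 1.40 to 2.51 TPM, under all 5 control centroblasts (4.38 to 7.32).

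The mutation was accompanied by a lower level of a single member in centroblasts, Pdcd1lg2, whose product PD-L2 is the second ligand of PD-1. In control centroblasts 1 to 5 Pdcd1lg2 was at 6.52, 7.32, 4.78, 4.82 and 4.38 TPM, and in mutant centroblasts 1 to 5 at 2.51, 2.11, 1.40, 2.16 and 1.42. All 5 mutants were below all 5 controls, and the gap between the groups was wider than the range of the mutants. The log2 fold change of TPM + 1 was -1.16 ± 0.18 (SE; 95% interval -1.54 to -0.79) with limma's adjusted p = 0.0013. On this scale changes of low genes are understated. The call held with each of 9 alternative settings (log2 -1.49 to -0.60) and with each of 20 libraries left out in turn (-1.23 to -1.07), and without centroblast mutants 4 and 5 it was -1.12 (adjusted p = 0.0035). Of all tested genes, 4.29% were called in this comparison, 3.38% as lower, and 2.99% had all 5 mutants below all 5 controls, so 1 called member of 10 is to be read against that background. That share depended on single libraries: 27.3% of genes were called without centroblast mutant 1 and 1.29% without centroblast control 2. The median over the 10 members was -0.08. Of 6 naive B cell markers 2 were lower in mutant centroblasts (Klf2 at a mean of 16.4 TPM against 38.9, and Fcer2a at 76.3 against 112), 2 of 2 tested erythroid markers were higher with Hba-a1 at 0 in all libraries, and 0 of 8 macrophage markers passed. Of 5 tested follicular dendritic and stromal markers 2 were lower: Cr2 (66.6 TPM against 128) and Fcer2a, already counted above among the naive B cell markers. Vcam1, Clu and Mfge8 did not pass (log2 -0.15, -0.19 and 0.18). Cxcl13 of the same list was at or under 0.571 TPM in all libraries and was too low to test. The mean of the sum was 154 TPM against 250.2 in controls, most of it Cr2 and Fcer2a, so it says little of the list's other markers. The part of these markers in the Pdcd1lg2 value was not tested.

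The neighbouring PD-1 ligand gene, Cd274, had a lower mean in mutant centroblasts without passing the test. It was at 5.74, 10.1, 6.89, 4.88 and 5.88 TPM in control centroblasts 1 to 5 and at 6.21, 6.01, 6.87, 3.09 and 1.43 in mutants. Mutants 1 to 3 lay inside the control range, and mutants 4 and 5, the libraries that stood apart, below it. The log2 fold change was -0.52 ± 0.27 (adjusted p = 0.195), and the mean of mutants 1 to 3 was 6.36 TPM (log2 -0.031 without mutants 4 and 5). Within a library, the Cd274 level relative to that of Pdcd1lg2 was 0.881, 1.39, 1.44, 1.01 and 1.35 in control centroblasts and 2.47, 2.85, 4.92, 1.43 and 1.01 in mutants. Mutants 1 to 3 exceeded every control, and mutants 4 and 5 did not.

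**Figure D2:**
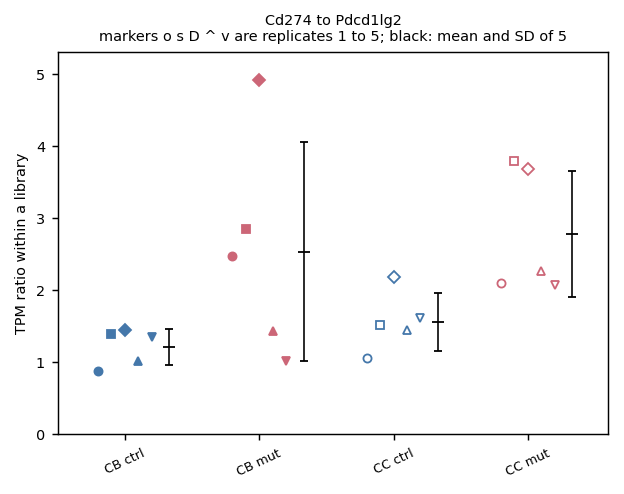
Ratio of Cd274 TPM to Pdcd1lg2 TPM within each of the 20 libraries, with symbol shapes for replicates 1 to 5 and the mean and SD of 5 in black. Means were 1.21 and 2.54 in control and mutant centroblasts and 1.56 and 2.78 in control and mutant centrocytes, and the groups overlap.

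Cd40, the receptor for T cell CD40 ligand, and Cd86, a CD28 ligand, had a higher and a lower mean in mutant centroblasts, and neither passed the test. Cd40 was at 74.2, 73.3, 81.5, 72.0 and 74.9 TPM in controls 1 to 5 and at 85.7, 93.6, 88.1, 80.7 and 81.6 in mutants. Mutant 4 lay below control 3, and otherwise every mutant was above every control. The log2 fold change was 0.19 ± 0.07 (adjusted p = 0.0829). It passed under median-of-ratios scaling (0.37, adjusted p = 0.0162) and without centroblast mutants 4 and 5 (0.24, adjusted p = 0.0278). Cd86 was at 173, 177, 124, 111 and 130 TPM in controls and 99.7, 85.2, 101, 119 and 129 in mutants, with overlapping groups, and both sorts were gated on CD86. Its log2 fold change was -0.41 (adjusted p = 0.0839), and without mutants 4 and 5 it was -0.56 (adjusted p = 0.0459).

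The other members did not pass the test in centroblasts. Icosl, the ligand of ICOS, was at 66.6, 91.8, 88.7, 78.0 and 84.4 TPM in controls and 103, 90.3, 89.5, 63.8 and 43.8 in mutants. Mutants 4 and 5 were the 2 lowest of the 10 libraries, and the other mutants lay near or above the controls (log2 -0.12, adjusted p = 0.64). Tnfrsf14 showed the same layout, with 18.1, 26.3, 21.4, 25.8 and 19.98 TPM in controls and 33.1, 26.0, 19.1, 12.6 and 10.4 in mutants (log2 -0.24, adjusted p = 0.513). Without mutants 4 and 5 the fold changes of Icosl and Tnfrsf14 were 0.21 and 0.20, so their sign turned. For Cd80, a ligand of CD28 and CTLA-4, controls were at 7.53, 11.3, 6.67, 4.90 and 2.36 TPM and mutants at 7.71, 9.71, 11.1, 3.14 and 3.18. Icam1 was at 68.0, 77.0, 74.8, 77.5 and 75.8 TPM in controls and at 84.4, 82.1, 74.3, 66.5 and 56.9 in mutants, whose spread was wider and again lowest in mutants 4 and 5. The death receptor gene Fas ranged from 171 to 228 TPM in controls and from 185 to 231 in mutants. Log2 values were 0.06 for Cd80, -0.05 for Icam1, -0.01 for Fas and -0.00 for Cd83, and the signs of Icam1 and Cd83 also turned without those libraries (0.10 and 0.19). Without them the value of Cd80 was 0.59 (adjusted p = 0.525) and that of Fas -0.10, neither past the threshold. The 95% interval of Cd80 ran from -0.69 to 0.80, since its libraries varied widely in both genotypes (SD 3.30 TPM in controls and 3.68 in mutants).

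In centrocytes no member was called by limma, against 1.2% of all genes. At an unadjusted p under 0.05 there were 4: Cd40, Cd86, Pdcd1lg2 and Fas. Cd40 was at 148, 142, 146, 143 and 141 TPM in control centrocytes 1 to 5 and at 163, 179, 165, 170 and 157 in mutants, so all 5 mutants were above all 5 controls, as for 2.63% of genes. Its log2 fold change was 0.21 ± 0.07 (adjusted p = 0.171), and with the 10 centrocyte libraries fitted alone the adjusted p was 0.0405. Without centroblast mutants 4 and 5 it was 0.033. Pdcd1lg2 was at 9.45, 12.3, 6.71, 7.08 and 8.06 TPM in controls and 7.97, 6.31, 4.59, 4.85 and 6.71 in mutants, with overlap (log2 -0.45, adjusted p = 0.349). Cd86 was at 308, 329, 318, 330 and 305 TPM in controls and at 249.97, 188, 212, 298 and 308 in mutants (log2 -0.36, adjusted p = 0.333), with mutants 4 and 5 near the control level. Fas ranged from 222 to 244 TPM in controls and from 177 to 225 in mutants (log2 -0.20, adjusted p = 0.471). Cd80 had mutant values of 15.4, 16.7, 18.5, 7.38 and 7.65 TPM against 8.49, 12.1, 9.03, 8.03 and 4.11, so mutants 1 to 3 were above every control and mutants 4 and 5 were not (log2 0.57, adjusted p = 0.757). Values for Icosl (0.15), Cd274 (0.28), Icam1 (0.18), Tnfrsf14 (0.25) and Cd83 (-0.18) did not pass. Of 3 tested dendritic cell markers, 2 were higher in mutant centrocytes: Itgax (mean 10.2 TPM against 1.73) and Ccr7 (28.3 against 13.3). Ccr7 is also counted among the naive B cell markers. The third, Flt3, did not pass (39.5 TPM against 36.0, log2 0.14), and Zbtb46, Xcr1, Clec9a and Siglech were too low to test. The summed dendritic level had a mean of 79.5 TPM in mutant centrocytes against 51.8 in controls. Its part in these values was not tested.

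**Figure D3:**
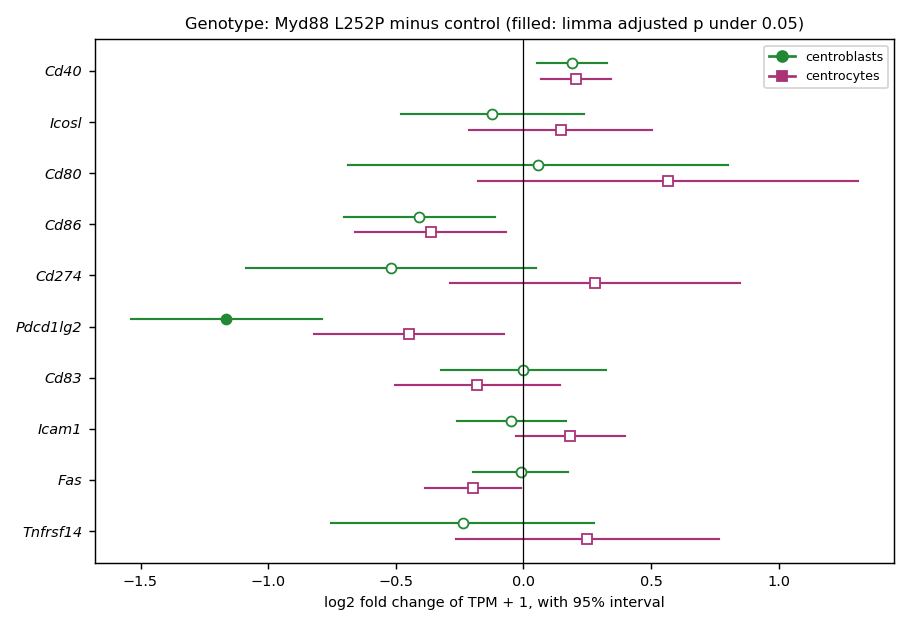
Log2 fold change of TPM + 1, Myd88 L252P minus control, with its 95% interval for each gene in centroblasts (green circles) and centrocytes (purple squares); a filled symbol has a limma adjusted p under 0.05. Only Pdcd1lg2 in centroblasts (-1.16) is filled.

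The difference of the genotype effect between the zones was not called for any member (0 of 10, with 0.0176% of all genes called). Pdcd1lg2 was the only member with an unadjusted p under 0.05 (difference 0.72, 95% interval 0.19 to 1.24, adjusted p = 0.403). The lower Pdcd1lg2 in mutant centroblasts is therefore not shown to be particular to that zone. The difference was 0.80 for Cd274 (adjusted p = 0.403) and 0.49 for Tnfrsf14 (adjusted p = 0.462), and without centroblast mutants 4 and 5 it was 0.31 and 0.054.

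Between the zones most members were higher in centrocytes: 7 of 9 passed in controls and 8 of 9 in mutants, all of them higher, against 30.7% and 61.5% of all genes called (21.2% and 48.8% as higher). Those backgrounds moved with the libraries fitted. In either direction, 47.7% of all genes in controls and 50.9% in mutants were called without centroblast mutants 4 and 5. The members' median log2 fold change was 0.74 in controls and 1.01 in mutants, beside 0.14 and 0.34 over all genes. Cd80 and Fas did not pass in controls, and Fas alone did not in mutants. FAS was gated positive in both sorts, which limits what the zone values of Fas can show. With Fas left out as well as Cd86, the members' median was 0.82 in controls and 1.14 in mutants. Without centroblast mutants 4 and 5 the values in mutants were lower for Cd274 (1.21), Tnfrsf14 (1.18), Icosl (0.69), Icam1 (0.68) and Cd83 (1.35), all still past the threshold. Macrophage markers moved in the same direction (7 of 8 tested rose in each genotype). So did naive B cell markers (5 of 6 in controls and 6 of 6 in mutants). Of 3 tested dendritic cell markers 2 rose in each genotype (Itgax and Ccr7), and Flt3 did not pass (-0.22 and 0.12). Of the follicular dendritic and stromal markers, 3 of 5 rose in each genotype (Cr2, Fcer2a and Vcam1, with Pdpn at 0 in all libraries). The mean of the list's sum went from 250.2 to 788 TPM in controls and from 154 to 688 in mutants. Most of it was Cr2 (128 to 319 TPM in controls, 66.6 to 262 in mutants) and Fcer2a (112 to 442 and 76.3 to 403). Fcer2a is also counted among the naive B cell markers, and Cxcl13 was too low to test, so the sum says little of the list's other markers. Clu and Mfge8 did not pass (0.32 and 0.13 in controls, 0.41 and -0.1 in mutants). Of the T cell markers, 3 could be tested, of which 3 rose in controls and 1 in mutants, and their summed level, nearly all of it Lck, was 101 to 298 TPM. The part of these markers was not tested.

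Among the receptors and ligands of help, Cd40 rose from 75.2 ± 3.69 to 144 ± 2.81 TPM in controls (log2 0.93 ± 0.07, adjusted p = 2.08e-09) and from 85.9 ± 5.24 to 167 ± 8.12 in mutants (0.95, adjusted p = 6.56e-10), with no overlap. Icosl was at 111, 165, 156, 125 and 136 TPM in control centrocytes and at 155, 168, 168, 152 and 121 in mutant centrocytes, and rose in both genotypes (log2 0.74, adjusted p = 0.00254, and 1.01, adjusted p = 5.51e-05). Cd80 passed in mutants (0.88, adjusted p = 0.0387) with overlapping groups, but not in controls (0.37, adjusted p = 0.454). In mutants the call was lost without centroblast mutants 4 and 5 (0.35, adjusted p = 0.453) and under median-of-ratios scaling (0.57, adjusted p = 0.131). Cd86, sorted on, had means of 143 and 318 TPM in control centroblasts and centrocytes and of 107 and 251 in mutants, log2 differences of 1.17 and 1.22.

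Both PD-1 ligand genes rose in centrocytes. Cd274 was at 10.02, 18.7, 14.6, 10.2 and 13.0 TPM in control centrocytes and 16.7, 24.0, 16.9, 11.0 and 13.9 in mutant centrocytes. One control centrocyte, replicate 1, lay just under the highest control centroblast (10.1), whereas mutant zones did not overlap. Log2 fold changes were 0.89 (adjusted p = 0.0168) in controls and 1.70 (adjusted p = 3.13e-05) in mutants, and the control call was lost without centrocyte control 2. Pdcd1lg2 rose by 0.56 in controls (adjusted p = 0.0222, overlapping) and by 1.27 in mutants (adjusted p = 6.85e-06, no overlap). The control call was lost under median-of-ratios scaling (0.43, adjusted p = 0.0585) and without centroblast control 3, 4 or 5 or centrocyte control 2.

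Cd83 had the widest zone difference in controls among the tested members: control centrocytes were at 743, 677, 1000, 968 and 1043 TPM against 236, 210, 349, 245 and 303 in control centroblasts (log2 1.72, adjusted p = 7.43e-08). Mutant centrocytes were at 723, 717, 675, 898 and 863 TPM, and mutant centroblasts at 262, 328, 317, 249 and 189 (log2 1.54, adjusted p = 1.01e-07). Icam1 was at 104, 106, 123, 117 and 119 TPM in control centrocytes and 112, 142, 149.9, 129 and 117 in mutant centrocytes. This adhesion ligand gene rose from 74.6 to 114 TPM in controls (log2 0.60, adjusted p = 1.66e-04) and from 72.8 to 130.03 in mutants (0.83, adjusted p = 1.42e-06). Tnfrsf14, the BTLA ligand, reached 35.2, 46.6, 67.0, 50.4 and 52.1 TPM in control centrocytes and 37.7, 76.8, 73.7, 66.5 and 49.3 in mutants (log2 1.12, adjusted p = 0.00175, and 1.61, adjusted p = 1.95e-05). All centrocytes were above all centroblasts of their genotype for Icam1 and Tnfrsf14. Fas, gated positive in both sorts, did not pass in either genotype (0.19, adjusted p = 0.114, and 0.00, adjusted p = 0.978). Under median-of-ratios scaling Fas in mutants was -0.35 (adjusted p = 0.0397).

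**Figure D4:**
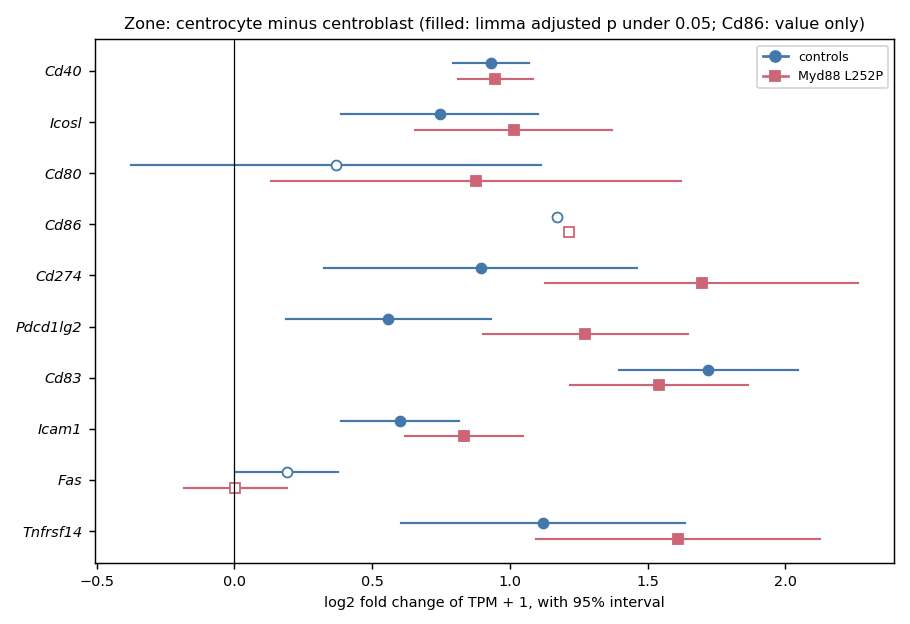
Log2 fold change of TPM + 1, centrocyte minus centroblast, with its 95% interval in controls (blue circles) and Myd88 L252P (red squares); filled symbols have a limma adjusted p under 0.05, and Cd86, the sorted gene, is drawn as a value with no interval. Cd83 in controls (1.72) and Cd274 in mutants (1.70) lie farthest to the right, and Fas in mutants (0.00) lies on the zero line.

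Genes of the CD40 pathway were mostly higher in centrocytes, where 21.2% of all genes in controls and 48.8% in mutants were called higher. Without centroblast mutants 4 and 5, 3793 of 11352 genes were called higher in controls and 4079 in mutants. Of 20 genes of the CD40 signalling relay, 12 rose and 1 fell in controls, and 17 rose and 1 fell in mutants (median log2 0.58 and 0.90), and under median-of-ratios scaling 11 rose and 2 fell in controls and 13 rose and 2 fell in mutants. Relb and Nfkb2, which carry the non-canonical NF-kB arm, rose by 1.12 (adjusted p = 2.26e-06) and 1.27 (adjusted p = 6.58e-06) in controls, and Traf5 was the gene that fell (-0.62). Of 19 tested genes that CD40 stimulation is known to raise, 18 rose in each genotype (median 1.35 and 1.62). Under median-of-ratios scaling 16 rose and 1 fell in controls, and 16 rose in mutants. Traf1, Tnfaip3, Nfkbia, Relb and Nfkb2 are in both lists, so the counts are not separate. Both lists were chosen with earlier results of these data known, so their counts are descriptions. Whether CD40 raised these genes here was not tested. Ccl22, a chemokine that draws helper T cells, went from 0.164 to 7.86 TPM in controls, and Fcer2a, the low-affinity IgE receptor, from 112 to 442. By genotype few relay genes passed: Traf5 (-0.48, adjusted p = 0.0126) and Nfkb1 (-0.50, adjusted p = 0.0459) were lower in mutant centroblasts, and none passed in centrocytes. Without centroblast mutants 4 and 5 the centroblast calls were 3 higher (Nfkb2, Relb and Nfkbia) and 1 lower (Traf5), and in centrocytes 3 higher (Traf1, Nfkb2 and Nfkbia). Under median-of-ratios scaling they were 2 higher (Nfkb2 and Relb) and 3 lower (Traf6, Nfkb1 and Rel) in centroblasts and 1 higher (Nfkb2) in centrocytes, so no direction of the relay by genotype can be given. In the response list Fcer2a was lower in mutant centroblasts (-0.60, adjusted p = 0.0288), a call lost under both of these settings, and Ccr7 higher in mutant centrocytes (1.02, adjusted p = 0.0311).

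Against the same shares of all genes, all 12 antigen presentation genes rose in control centrocytes and 11 in mutants, with the smallest adjusted p in controls for H2-Oa (0.88, adjusted p = 4.03e-07) and H2-Aa (0.55, adjusted p = 3.51e-06), but under median-of-ratios scaling only 7 and 5 passed. B2m, the light chain of MHC class I, was higher in mutant centrocytes (0.63, adjusted p = 0.0294). In centroblasts B2m had means of 2047 TPM in controls and 2847 in mutants without passing. It passed as higher there under median-of-ratios scaling, and also without centroblast mutants 4 and 5. H2-Oa was higher in mutant centroblasts (0.33, adjusted p = 0.0421), but not without centroblast mutants 4 and 5. Receptors for T cell cytokines rose in 8 of 10 cases in controls and 10 of 10 in mutants. Il2rg, the common gamma chain, rose by 1.09 (adjusted p = 7.39e-07) and 1.46 (adjusted p = 5.53e-09). Il10ra was lower in mutant centroblasts (-0.64, adjusted p = 0.00912) and Il2rb higher in mutant centrocytes (1.24, adjusted p = 0.016). Another list held B7 and TNF family ligands together with other contact molecules, among them the cytokine subunit Ebi3, the lectin Lgals9 and Cd24a. Of its 11 tested genes, 6 rose and 2 fell in controls and 8 rose and 1 fell in mutants, with Ebi3 rising by 1.81 and Cd276 by 1.37 in controls. Cd24a was lower in mutant than in control centrocytes (-0.43, adjusted p = 0.0202), a call lost under median-of-ratios scaling. Cd70 (mean 2.44 TPM in control and 6.52 in mutant centrocytes) did not pass there with all libraries. It passed as higher in mutant centrocytes under median-of-ratios scaling and without centroblast mutants 4 and 5. In mutant centroblasts Cd70 passed as higher without those libraries, but not under median-of-ratios scaling. Of 13 adhesion partners 6 rose and 1 fell in controls, and 9 rose and 1 fell in mutants, and under median-of-ratios scaling 3 fell in each genotype. Slamf1 went from 53.4 to 138 TPM and Vcam1 from 3.14 to 18.3 in controls. In the FAS death pathway 4 of 11 rose and 1 fell in controls (Cflar 0.73, adjusted p = 0.0104 and Bid 0.48, adjusted p = 0.0145), and 5 rose and 1 fell in mutants, a share near that of all genes, and under median-of-ratios scaling 3 rose and 4 fell in mutants. With all 20 libraries fitted, no gene of it passed by genotype. On the T cell side only 7 of 15 genes could be tested: 2 rose and 1 fell in controls, and 4 rose and 2 fell in mutants. Btla and Cxcr5, which B cells also make, rose in both genotypes and Cd2 fell in both. Cd2 was at 199.9 to 399.6 TPM across all libraries, where Cd3e stayed at or under 1.37, so its fall is not given as a T cell signal. In mutants Ctla4 (0.83, adjusted p = 0.025) and Tigit (0.79, adjusted p = 0.0439) rose and Cd40lg fell (-0.73, adjusted p = 0.00758), and under median-of-ratios scaling 2 rose and 2 fell.

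Within groups, after the group means were removed, several members varied together across the 20 libraries. Given as descriptions over libraries that share depth and composition, Pearson's r was 0.94 for Icam1 and Tnfrsf14 (0.90 without centroblast mutants 4 and 5), 0.87 for Icosl and Cd274 (0.68) and 0.76 for Cd86 and Fas (0.72). The most negative was -0.63 for Cd86 and Icam1 (-0.51 without those libraries). Pdcd1lg2 and Cd83 had the most negative value without them, -0.65, against -0.42 with all 20 libraries. By the same measure over all 20 libraries, the most alike tested genes were Ltb and Vim for Pdcd1lg2 (0.78 each), Noc3l (0.97) and Hsp90b1 (0.93) for Cd274, Emilin2 (0.86) and Psmb9 (0.85) for Cd40, Igtp (0.92) and Ipo11 (0.89) for Cd80, and Sgk3 (0.91) and Rap1b (0.86) for Cd86. For Icosl they were Mfsd4 and Fam160b1 (0.96 each), for Cd83 Hes5 (0.85) and Endou (0.84), for Icam1 Rabl6 and Irf2bp2 (0.95 each), for Fas Shfm1 (0.86) and Mad2l1 (0.85), and for Tnfrsf14 Man2a2 (0.95) and Icam1 (0.94).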

How the data were processed

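Stranded mRNA libraries of 20 sorted samples were sequenced, per the labels' protocols. The deposited values are TPM per gene, aligned with STAR to mm10 per the submitters' processing notes, and the program that made the TPM is not given in the sources used here. The TPM hold no counts, so depth is unknown and no interval from reads can be given. Samples were grouped by the sort and genotype in the labels. A limma fit (limma 3.58.1, R 4.3.3, with trend and robust) used log2(TPM + 1) of the 11386 of 23382 genes that reached 1 TPM in 5 or more libraries, 4 group means and 16 residual degrees of freedom. Tests were two-sided, with Benjamini-Hochberg adjustment over all tested genes and a threshold of 0.05, for 5 comparisons. No libraries were identical. Alternatives were a pseudocount of 0.1 or 5, no filter, a filter of 5 TPM, median-of-ratios scaling, no trend or robust fit, only the 10 libraries compared, a replicate block, and each library left out. Leaving out centroblast mutants 4 and 5 together was planned too, and its use for lists and likeness, with median-of-ratios scaling for lists, was added after seeing the data.

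The text names all 10 members and up to 4 called genes from each of 8 lists per comparison. These were chosen by adjusted p, except that between the zones in controls Faim3, Tank and Nfkbia were passed over. Named for each member are the 2 tested genes with the highest within-group Pearson correlation (numbered gene models, receptor segments and Y-linked genes left out). Ctla4, Tigit, Traf5 as the relay gene that fell in controls, and genes that passed only under an alternative were named after their values were seen. The members and lists were chosen with earlier results of these data known. Promoter windows are RefSeq sequences on GRCm38.p6. The fit was tested on simulated data. Values of a few list and marker genes are not reported here, though counts over their lists include them.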

Additional observations from a re-analysis of the deposited data

Results flagged for a closer look

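Icam1 in centroblast control 1 lay apart from its group: 68.0 TPM against 74.8 to 77.5 in the other 4 controls. The gap to the nearest of the others was 0.721 of the group's whole range. Every member was examined in every group of 5, and chance marks about 1 in 20 such groups.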

How the results depend on the processing

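The depth of the libraries is unknown, which limits the low genes most (Cd80, Cd274 and Pdcd1lg2). The number of members called by genotype in centroblasts was 1, and became 2 with median-of-ratios scaling (Cd40 added) and 3 without centroblast mutants 4 and 5 (Cd40 and Cd86 added). In centrocytes it was 0, and became 1 (Cd40) with only the 10 libraries compared and 1 without centroblast mutants 4 and 5. With 1 library left out in turn the counts ranged from 1 to 1 in centroblasts, 0 to 0 in centrocytes, 0 to 0 for the difference, 5 to 7 for the zones in controls and 7 to 8 in mutants. The cause was not tested. Signs turned only in values that had not been called. With median-of-ratios scaling the genotype values in centroblasts were 0.061 for Icosl, 0.18 for Cd83, 0.14 for Icam1 and 0.17 for Fas, the differences were -0.20 for Cd40 and -0.17 for Cd86, and the zone value of Fas in mutants was -0.35. Without centroblast mutants 4 and 5 the genotype values in centroblasts were 0.21 for Icosl, 0.19 for Cd83, 0.10 for Icam1 and 0.20 for Tnfrsf14, and the differences -0.038 for Cd40, -0.059 for Icosl and -0.021 for Cd80. With 1 library left out, ranges that crossed 0 in centroblasts were -0.24 to 0.068 for Icosl, -0.20 to 0.27 for Cd80, -0.083 to 0.12 for Cd83, -0.10 to 0.037 for Icam1 and -0.074 to 0.027 for Fas. For the difference they were -0.014 to 0.046 for Cd40 and -0.037 to 0.14 for Cd86, and for the zones in mutants -0.033 to 0.052 for Fas.

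The Cd80 zone call in mutants was also lost with no filter (adjusted p = 0.0637), with only the 10 libraries compared (adjusted p = 0.0571) and without centroblast mutant 4 or 5 or centrocyte mutant 1, 2 or 3. Same-numbered centroblast and centrocyte libraries were not used as pairs: their deviations from the group means correlated over 0.1 in 4 of 5 pairs in controls (-0.0168 to 0.259) and 4 of 5 in mutants (-2.93e-05 to 0.269). As a hint from the data only, 4 of 5 control and 2 of 5 mutant centroblasts correlated best with their own number. With the replicate block Cd80 passed between the zones in controls (0.37, adjusted p = 0.031), no other member call changed, and 793 genes were called by genotype in centroblasts against 488. With median-of-ratios scaling those calls were 286 higher and 353 lower against 103 and 385, and the zone calls were 2048 and 2009 in controls (against 2419 and 1079) and 3376 and 3281 in mutants (against 5561 and 1436). With only the 10 centroblast libraries fitted, 27 genes were called by genotype.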

Other observations

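The level of Cd86 relative to Cd80, the 2 ligands of CD28, varied by library number in the mutants of both sorts. In mutant centroblasts 1 to 5 the ratio was 12.9, 8.77, 9.15, 37.8 and 40.6, and in mutant centrocytes 1 to 5 it was 16.3, 11.2, 11.5, 40.4 and 40.2. In controls it was 23.0, 15.7, 18.6, 22.7 and 54.9 in centroblasts and 36.3, 27.3, 35.2, 41.1 and 74.3 in centrocytes. Numbers 4 and 5 of the mutants were the highest in both zones, and number 5 of the controls was the highest in both. These values were picked after they were seen, and the labels do not say that a number marks a shared animal.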
